A study of Mus musculus with 16 samples.

Results

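The transcripts of 8 enzymes that make NADPH, or that belong to the pathways that make it, were followed in mIMCD3 cells, a line from mouse inner medullary collecting duct. The genes were taken by symbol from the deposited read counts, and all 8 of 8 were found among the 55367 symbols and passed the filter on low counts, which kept 19509. They are G6pdx, Pgls and Pgd of the oxidative pentose phosphate pathway, Taldo1 and Tkt of its non-oxidative arm, the malic enzyme Me1, and the isocitrate dehydrogenases Idh1 and Idh2.

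NADPH carries the electrons with which a cell regenerates reduced glutathione and thioredoxin and builds fatty acids. Glucose-6-phosphate dehydrogenase and phosphogluconate dehydrogenase reduce NADP+ while they oxidise glucose 6-phosphate to a pentose, and transketolase and transaldolase return the pentoses to glycolysis. Malic enzyme and isocitrate dehydrogenase give NADPH from malate and isocitrate. Nrf2, encoded by Nfe2l2, is a transcription factor that binds antioxidant response elements. It is held at a low level by Keap1 until electrophiles such as sulforaphane (SFN) modify Keap1, and genes of NADPH production are among its known targets in other tissues. Cells of the renal medulla live in hyperosmotic surroundings, and one of the organic osmolytes they accumulate, sorbitol, is made by an NADPH-dependent reductase.

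The study had 8 conditions with 2 libraries each. WT cells received DMSO or 10 µM SFN for 5 h and were then kept in isosmotic medium or moved to hyperosmotic medium (600 mOsm) for 1 h or 6 h, which gave 6 conditions. Nrf2-/- cells, made by CRISPR/Cas9 from lentiviral vectors with blasticidin and puromycin selection, received 10 µM SFN and were isosmotic or stressed for 1 h, which gave the other 2. A WT line with an empty vector is not described, and whether the Nrf2-/- cells were 1 clone is not stated. The effect of Nrf2 loss and an effect of the editing, the selection or a clone cannot be told apart. The 16 libraries hold no Nrf2-/- cells without SFN. A difference in the level without SFN and a difference in the response to SFN therefore cannot be told apart either. The replicates are given as biological replicates, and with 2 a condition the p-values measure the spread between these libraries only.

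Library totals lay between 34484296 and 50774875 counts, and levels are given as CPM, counts scaled to a common library size after TMM, a correction for library composition. Genes were tested with edgeR's quasi-likelihood F-test, and one was called changed when its p, after Benjamini-Hochberg adjustment over the 19509 genes, was under 0.05. The 2 Nrf2-/- SFN 1 h libraries stood apart, with a biological coefficient of variation between them of 0.348 against 0.0393 to 0.128 for the other 7 pairs, and each call of a member that rests on them is also given without each of them. Values of other genes in these cells at 1 h are from the fit with both. Nfe2l2 itself was at 64.0 to 149 CPM in the 12 WT libraries and at 11.02 to 11.6 CPM in the 4 Nrf2-/- libraries. Of 13 epithelial and collecting duct markers, 8 were at 1 CPM or more in every library, whereas Aqp2, Aqp3 and Avpr2, which define principal cells, were under 1 CPM in every library. Of 16 markers of other cells, 9 were under 1 CPM in every library. In bulk RNA, fewer cells that express a gene and less RNA per cell cannot be told apart.

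The antioxidant response element is the DNA motif through which Nrf2 acts, so the promoter windows of the 8 genes were searched for its core, TGACNNNGC, and for the AP-1 site TGACTCA, on both strands. The windows are RefSeq's on GRCm38.p6, each 300 bases long from 250 before to 50 after a start site, and all 8 genes matched with 11 windows. The AP-1 site can lie inside the element's core, as it does in Me1. Over all 32851 promoter windows searched, 12.4% held the core, 5.20% the AP-1 site and 0.947% both. These are shares of windows, whereas the members are counted as genes, of which Pgd, Me1 and Idh1 have 2 windows each. The core was present in 3 of the 8 genes, which are shown here with 10 bases on either side and the core in capitals, 5′ to 3′ on the gene's own strand:
G6pdx: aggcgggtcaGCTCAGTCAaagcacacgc
Me1: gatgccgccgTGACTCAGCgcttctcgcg
Pgd: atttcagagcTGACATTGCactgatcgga
The G6pdx site (chrX:74428919-74428947, minus strand) starts 57 bases before the RefSeq start and carries the core on the strand opposite to the gene. GENCODE M21, which sets the 5′ end of G6pdx farther upstream, places it in the gene's 5′ UTR. The Me1 site (chr9:86695902-86695930, minus strand) starts 6 bases before the RefSeq start, in the 5′ UTR of GENCODE's model, and holds the AP-1 site as well. The Pgd site (chr4:149166061-149166089, minus strand) lies at base 4 after a second, downstream start and within coding sequence of Pgd. The main Pgd window, and the windows of Pgls, Taldo1, Tkt, Idh1 and Idh2, held neither motif.

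On a length scale, CPM per kb of exon in GENCODE M21, the 8 genes covered a wide range. In isosmotic WT cells with DMSO the highest was Taldo1 at 86.9 CPM per kb, followed by Tkt at 59.2, Idh2 at 45.3, Pgd at 39.4, G6pdx at 35.9, Me1 at 23.9, Pgls at 17.7 and Idh1 at 8.49. No 2 neighbours in this order overlapped between their libraries. The order changed with SFN, where Pgd at 61.5 and G6pdx at 50.5 CPM per kb passed Idh2 at 43.2, and with 6 h of stress, where Me1 in SFN cells stood at 47.9 and Idh1 at 18.5, above Pgls at 11.9. These are descriptions of condition means, and exon length of the annotation may not be the length of the transcripts in these cells.

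**Figure D1:**
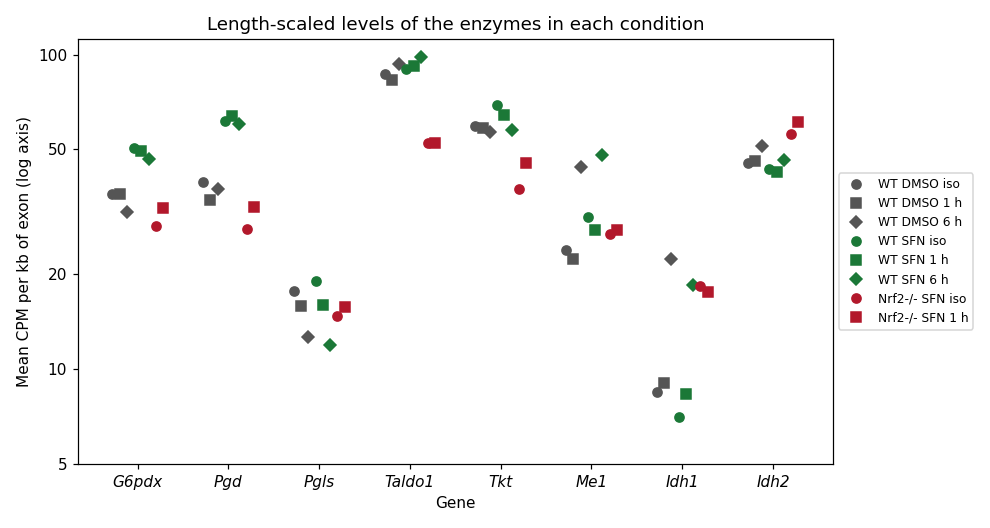
Mean level of each enzyme in each condition, in CPM per kb of exon on a log axis, from 2 libraries a condition. Colour gives genotype and pretreatment, and the symbol gives isosmotic medium (circle), 1 h (square) or 6 h (diamond) of stress. Taldo1 was highest in the 6 WT conditions, and Idh1 was lowest in isosmotic and 1 h WT cells.

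SFN pretreatment was compared with DMSO in WT cells to ask which transcripts the Nrf2 activator moved. The 2 dehydrogenases that reduce NADP+ in the oxidative pentose phosphate pathway were the members that passed the test. Under isosmotic conditions G6pdx and Pgd rose, at 1 h of stress Pgd, and at 6 h of stress G6pdx, where Pgd had a similar estimate but did not pass. None of the other 6 was called in any of the 3 comparisons. The share of all tested genes called was 2.84% (1.09% higher) under isosmotic conditions, 0.0923% at 1 h and 0.041% at 6 h, against 2, 1 and 1 of 8 members. In the last 2 comparisons 18 and 8 genes were called in either direction, with 669 and 718 at an unadjusted p under 0.05.

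G6pdx, on chromosome X (chrX:74409483-74429194 on GRCm38, minus strand), encodes the first and rate-limiting enzyme of the pathway. In isosmotic WT cells it was at 109.8 and 112 CPM in the DMSO libraries and 155 and 156 CPM in the SFN libraries. At 1 h of stress the DMSO libraries had 109.8 and 112 CPM and the SFN libraries 154 and 150.4 CPM, and at 6 h they had 100.3 and 94.6 CPM and 144 and 144 CPM. All 6 SFN libraries of WT cells lay above all 6 DMSO libraries. The log2 fold change was 0.49 (SE 0.0827, adjusted p = 0.00395) under isosmotic conditions and 0.56 (SE 0.0830, adjusted p = 0.0311) at 6 h, folds of 1.40 and 1.48. At 1 h it was 0.46 (SE 0.0827, adjusted p = 0.0682) and so not called. Fitted without the wide Nrf2-/- 1 h pair, the 1 h difference was 0.46 with an adjusted p of 0.000330. The 6 h call was lost with RLE size factors (adjusted p = 0.0577), without the filter on low counts (adjusted p = 0.0564) and with the replicate number as a block (adjusted p = 0.0685), and the isosmotic call was lost without DMSO replicate 2 (adjusted p = 0.0519) or SFN replicate 2 (adjusted p = 0.0558). The 6 h call was also lost when any 1 of the 14 libraries other than the Nrf2-/- 1 h pair was left out.

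G6pdx shares 13.6% of its exonic bases with Ikbkg on the opposite strand, and the strand setting of the counting is not given, so reads from the overlap cannot be told apart. Ikbkg was at 16.9 to 71.8 CPM over the 16 libraries. Its log2 fold change with SFN was 0.60 (adjusted p = 0.00803) under isosmotic conditions and 0.47 (adjusted p = 0.685) at 6 h, and that of Nrf2 loss was 0.094 (adjusted p = 0.561) under isosmotic conditions. With 6 h of stress it was -1.26 (adjusted p = 7.99e-07) after DMSO and -1.39 (adjusted p = 2.50e-07) after SFN. The retrocopy G6pd2 had at most 1 count in any library.

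Pgd, on chromosome 4 (chr4:149149991-149166771, minus strand), encodes the enzyme that takes the pathway's second NADPH-forming step. Its 2 isosmotic DMSO libraries had 246 and 263 CPM and its 2 SFN libraries 411 and 383 CPM. With 1 h of stress the values were 220.4 and 225 CPM after DMSO and 413 and 409.9 CPM after SFN, and with 6 h they were 233 and 249.9 CPM and 383 and 391 CPM. As for G6pdx, no DMSO library reached the lowest SFN library of WT cells. Pgd rose by 0.64 (SE 0.116, adjusted p = 0.00686) under isosmotic conditions and by 0.89 (SE 0.117, adjusted p = 0.00411) at 1 h on the log2 scale, folds of 1.56 and 1.85. At 6 h the log2 difference was 0.68 (SE 0.116, adjusted p = 0.0831), and without the 2 Nrf2-/- 1 h libraries the adjusted p was 7.80e-06. The isosmotic call was lost without DMSO replicate 1 (adjusted p = 0.0725), DMSO replicate 2 (adjusted p = 0.0502) or SFN replicate 1 (adjusted p = 0.0695), and the 1 h call when any 1 of its 4 libraries was left out. Whether the SFN effect itself differed between media was tested as an interaction. For Pgd the effect at 1 h exceeded the isosmotic one by 0.24 (SE 0.164, adjusted p = 0.800) and for G6pdx at 6 h by 0.072 (SE 0.117, adjusted p = 0.961), and edgeR called 0 of 8 members at either time, with 0 at an unadjusted p under 0.05 and 0 by DESeq2, where 0.559% and 0.759% of all genes were called.

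Me1 and Tkt also lay higher in every isosmotic SFN library without passing the test. Me1, the cytosolic malic enzyme, was at 89.1 and 94.8 CPM after DMSO and 113 and 120.3 CPM after SFN. The log2 difference was 0.35 (SE 0.128, adjusted p = 0.195), and 0.35 with an adjusted p of 0.00246 in the fit without the Nrf2-/- 1 h pair, in which Me1 was called. Tkt, transketolase, had 413 and 457 CPM after DMSO and 514 and 499.6 CPM after SFN, a log2 difference of 0.22 (SE 0.0973, adjusted p = 0.295), and it was likewise called in that fit (adjusted p = 0.0307). At 1 h of stress the log2 differences were 0.30 (SE 0.128) for Me1 and 0.14 (SE 0.0973) for Tkt. Both were called at 1 h with only the 4 libraries compared (adjusted p = 5.19e-05 and 0.00279), a fit in which 4.95% of all genes were called.

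Idh1, Idh2, Pgls and Taldo1 gave no call with SFN in the fit of all 16 libraries. Taldo1 was called at 1 h with only the 4 libraries compared (adjusted p = 0.00694). Idh1, the cytosolic NADP-dependent isocitrate dehydrogenase, was at 23.2 and 23.9 CPM after DMSO and 18.4 and 20.6 CPM after SFN, a log2 difference of -0.27 (SE 0.121, adjusted p = 0.306) in the direction opposite to that of G6pdx and Pgd. The 3 remaining genes had overlapping groups under isosmotic conditions, with log2 differences of -0.068 (SE 0.117) for Idh2, 0.11 (SE 0.151) for Pgls and 0.053 (SE 0.232) for Taldo1. With SEs of this size, changes below the detectable level at 2 libraries a condition cannot be seen.

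Epithelial markers moved with SFN in isosmotic medium as well. Of the 12 tested, 4 were lower and 0 higher, and the summed level of the 13 was 2944 to 3304 CPM after DMSO and 2188 to 2380.0 CPM after SFN. Krt19, a keratin, had means of 586 and 355 CPM, Cdh1, E-cadherin, 225 and 143 CPM, and Epcam 85.3 and 48.8 CPM. Other markers of the list had higher means after SFN without being called. These included Cdh16 at 172 and 200.4 CPM, Pax2 at 119 and 142 CPM and Scnn1a at 1.54 and 2.42 CPM. At 1 h the sum was 2735 to 2819.7 and 2793 to 2805 CPM, and at 6 h 4505 to 4558 and 4254 to 4503 CPM. The markers of other cells summed to 11.4 to 13.03 and 12.9 to 15.0 CPM in isosmotic medium. The part of these differences in the results on G6pdx and Pgd was not tested.

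**Figure D2:**
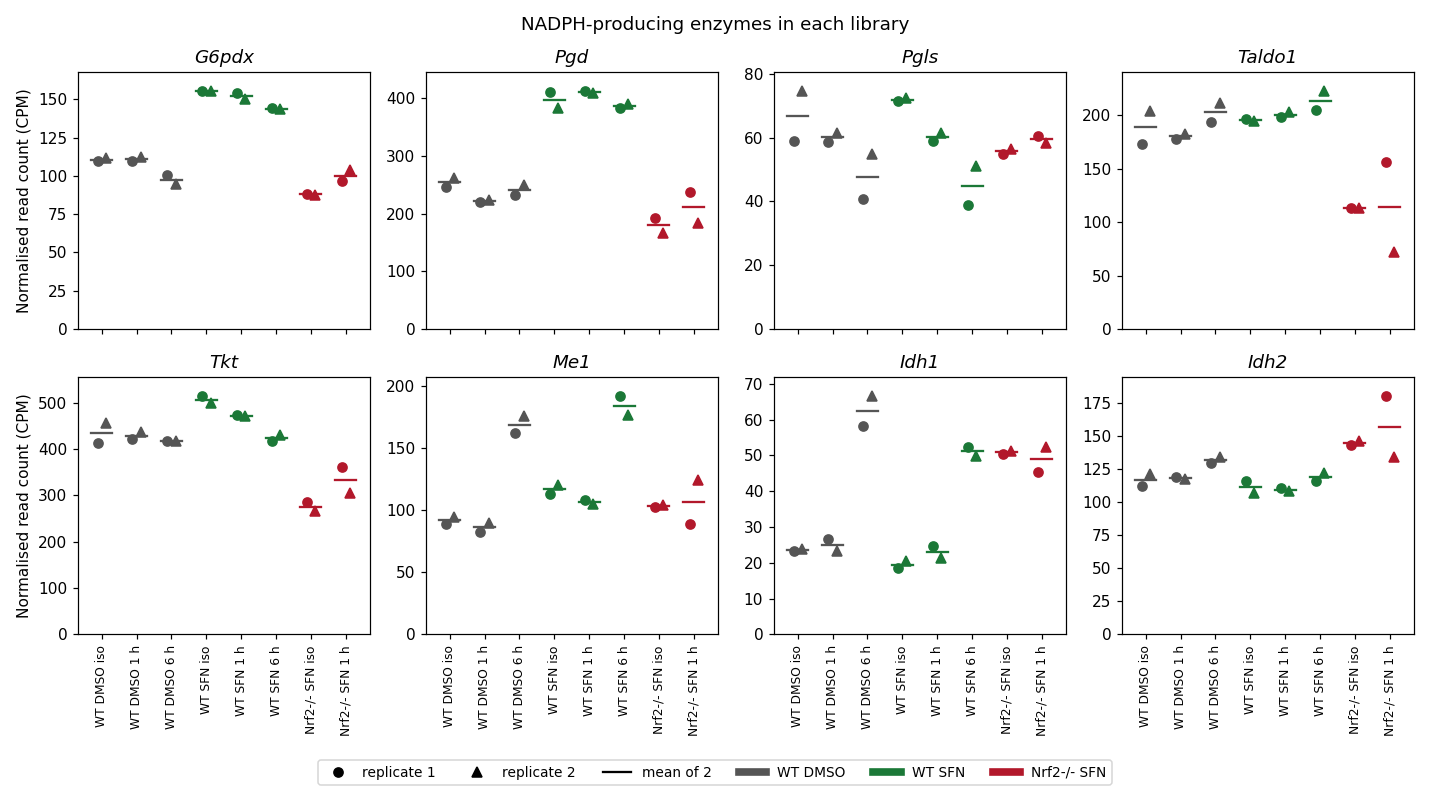
Normalised read count in CPM of the 8 enzymes in each of the 16 libraries, with circles for replicate 1, triangles for replicate 2 and a line at their mean. Grey is WT with DMSO, green WT with SFN and red Nrf2-/- with SFN. In the panels of G6pdx and Pgd the 6 green libraries lie above all others, and in the Taldo1 panel the 2 Nrf2-/- 1 h libraries lie far apart.

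Nrf2-/- cells were compared with WT cells after the same SFN pretreatment to ask which of these levels went with Nrf2. Of the 5 pentose phosphate members 4 were lower, and both isocitrate dehydrogenases were higher. Under isosmotic conditions 4 members were lower (G6pdx, Pgd, Taldo1 and Tkt), 2 were higher (Idh1 and Idh2), and Pgls and Me1 were not called. The same 6 genes were called in the same directions at 1 h of stress. Nrf2 loss went with a large part of the transcriptome, 34.1% of all tested genes under isosmotic conditions (18.4% lower, 15.7% higher) and 31.5% at 1 h (16.2% lower, 15.3% higher), and the member counts of 6 of 8 stand against that background. The WT SFN libraries are also those of the SFN comparisons, so the 2 sets of differences are not independent.

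For the oxidative arm, the Nrf2-/- isosmotic libraries had 88.5 and 87.7 CPM of G6pdx, below every WT library including those with DMSO, and 193 and 167 CPM of Pgd, again below every WT library. The log2 fold changes against WT with SFN were -0.82 (SE 0.0832, adjusted p = 2.57e-06) for G6pdx and -1.14 (SE 0.117, adjusted p = 2.93e-06) for Pgd. At 1 h of stress Nrf2-/- cells had 96.4 and 104 CPM of G6pdx and 238 and 185 CPM of Pgd, with log2 fold changes of -0.60 (SE 0.0830, adjusted p = 5.55e-05) and -0.96 (SE 0.117, adjusted p = 1.71e-05). For G6pdx at 1 h the value was -0.54 without Nrf2-/- replicate 1 (adjusted p = 5.64e-06) and -0.66 without replicate 2 (adjusted p = 4.57e-07). For Pgd it was -1.14 without Nrf2-/- replicate 1 (adjusted p = 2.19e-11) and -0.79 without replicate 2 (adjusted p = 6.57e-08). The 2 genes were at about 0.567 and 0.454 times the WT level in isosmotic medium. Pgls, which hydrolyses the lactone between the 2 dehydrogenase steps, was at 55.0 and 56.5 CPM against 71.4 and 72.4 CPM in WT with SFN, a log2 difference of -0.37 (SE 0.151, adjusted p = 0.0762), and at 1 h the difference was -0.017 (SE 0.151). Its isosmotic difference passed the threshold in 4 alternatives: with library totals, without the filter on low counts, with only the 4 libraries compared and with the replicate block. Pgls shares 20.6% of its exonic bases with Fam129c on the same strand, which was at 2.13 to 7.79 CPM.

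For the non-oxidative arm, Taldo1, transaldolase, was at 113 and 113 CPM in isosmotic Nrf2-/- cells and at 196 and 195 CPM in WT with SFN, and Tkt was at 285 and 266 CPM against 514 and 499.6 CPM. The groups did not overlap for either gene. The log2 fold change was -0.79 (SE 0.234, adjusted p = 0.0183) for Taldo1 and -0.88 (SE 0.0981, adjusted p = 6.64e-06) for Tkt. The Taldo1 call was lost when any 1 of the 4 libraries was left out. At 1 h the 2 Nrf2-/- libraries of Taldo1 had 156 and 71.9 CPM against 198 and 203 CPM in WT, so the Nrf2-/- replicates differed from each other more than the higher of them differed from WT. The log2 fold change of -0.81 (SE 0.234, adjusted p = 0.0168) became -1.47 without Nrf2-/- replicate 1 (adjusted p = 5.92e-13) and -0.36 without Nrf2-/- replicate 2 (adjusted p = 0.00375). The Taldo1 call at 1 h was also lost without WT SFN 1 h replicate 1 (adjusted p = 0.0680) or replicate 2 (adjusted p = 0.0806). Tkt at 1 h was at 360.4 and 306 CPM against 473 and 471 CPM, a log2 fold change of -0.50 (SE 0.0976, adjusted p = 0.00114), which was -0.61 without Nrf2-/- replicate 1 (adjusted p = 6.66e-07) and -0.39 without replicate 2 (adjusted p = 0.000523).

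The isocitrate dehydrogenases went the other way. Idh1 was at 50.5 and 51.2 CPM in isosmotic Nrf2-/- cells and at 18.4 and 20.6 CPM in WT with SFN. At 1 h it was at 45.5 and 52.3 CPM against 24.7 and 21.4 CPM. The log2 fold change was 1.38 (SE 0.122, adjusted p = 6.38e-07), a fold of 2.60, and 1.09 (SE 0.122, adjusted p = 7.80e-06) at 1 h. The 1 h value was 1.20 without Nrf2-/- replicate 1 (adjusted p = 1.04e-09) and 0.98 without replicate 2 (adjusted p = 1.70e-07). Idh1 was the member with the largest difference in isosmotic medium, and all 4 Nrf2-/- libraries also lay above the isosmotic and 1 h DMSO libraries of WT cells. Idh2, the mitochondrial enzyme, had 143 and 146 CPM against 116 and 107 CPM, a log2 fold change of 0.37 (SE 0.117, adjusted p = 0.0230), and 180.4 and 135 CPM against 111 and 109 CPM at 1 h, a log2 fold change of 0.52 (SE 0.117, adjusted p = 0.00328). The size of the 1 h difference depended on 1 library, being 0.31 without Nrf2-/- replicate 1 (adjusted p = 0.00519) and 0.72 without replicate 2 (adjusted p = 9.85e-08). The isosmotic call of Idh2 was lost when any 1 of the 4 libraries was left out and with library totals (adjusted p = 0.0570).

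Me1 did not differ detectably, at 103 and 104 CPM in isosmotic Nrf2-/- cells against 113 and 120.3 CPM in WT with SFN, a log2 difference of -0.18 (SE 0.128, adjusted p = 0.323). At 1 h its 2 Nrf2-/- libraries, 88.9 and 124 CPM, lay on either side of the WT libraries at 108 and 105 CPM. The log2 difference was 0.23 without Nrf2-/- replicate 1 (adjusted p = 0.0429) and -0.26 without Nrf2-/- replicate 2 (adjusted p = 0.0320), so it changed sign with the library left out. With only the 4 libraries of the 1 h comparison fitted, 2 of 8 members remained called, Pgd (adjusted p = 0.0490) and Idh1 (adjusted p = 0.0298). Over all genes 10.1% were called in that fit, against 31.5% in the fit of all libraries.

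Markers of the cells differed with the genotype as well. In isosmotic cells with SFN, Pax2 was at 142 CPM in WT and 26.9 CPM in Nrf2-/- cells, and Cdh16, a kidney cadherin, at 200.4 and 20.5 CPM. Epcam went from 48.8 to 284 CPM and Cdh1 from 143 to 438 CPM. Of the 12 epithelial markers tested, 2 were higher and 4 lower. The summed level of the 13 epithelial and duct markers was 2188 to 2380.0 CPM in WT and 2299.6 to 2417 CPM in Nrf2-/- cells, and that of the 16 markers of other cells was 12.9 to 15.0 and 4.55 to 5.35 CPM. The part of these differences in the results on the enzymes was not tested.

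**Figure D3:**
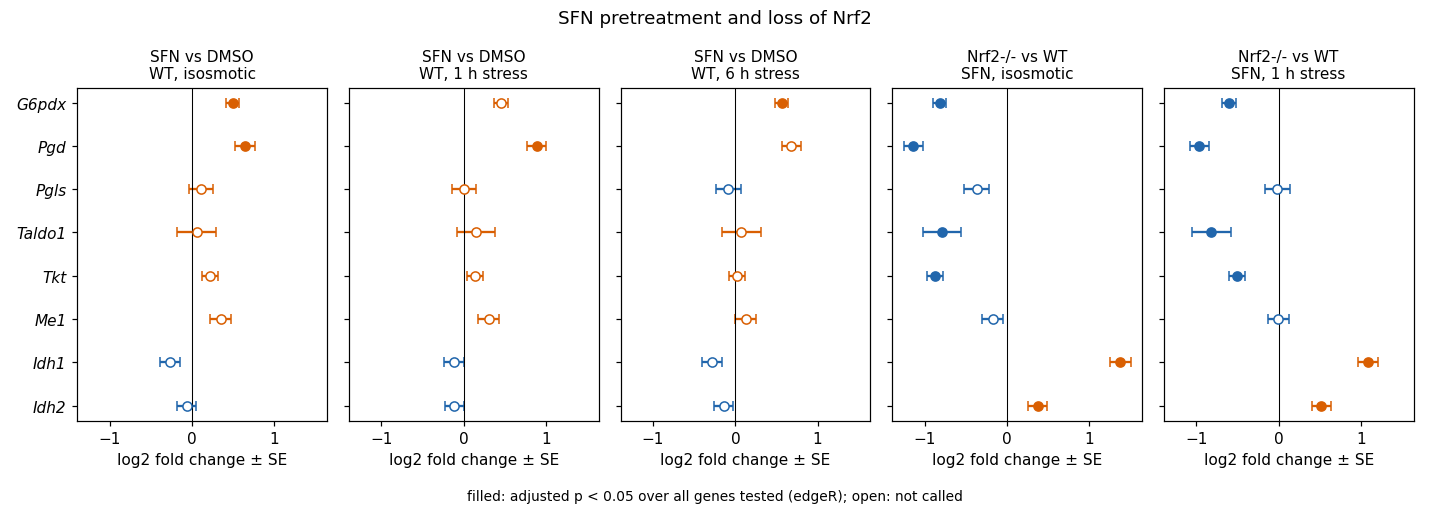
Log2 fold change with its SE for each enzyme with SFN against DMSO in WT cells (3 panels) and in Nrf2-/- against WT cells after SFN (2 panels), from 2 libraries a condition. Filled points passed an adjusted p of 0.05 over all tested genes. G6pdx and Pgd lie right of 0 in the SFN panels and left of 0 in the Nrf2 panels, where Idh1 and Idh2 lie to the right.

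Hyperosmotic stress was compared with isosmotic medium within each pretreatment and genotype. After 1 h, 0 of 8 members were called in WT cells with DMSO, in WT cells with SFN or in Nrf2-/- cells, where edgeR called 11.2%, 9.52% and 7.17% of all genes. None of the 8 had an unadjusted p under 0.05 in WT cells at 1 h, and G6pdx and Tkt did in Nrf2-/- cells. DESeq2 called 0, 0 and 1 member (Tkt in Nrf2-/- cells). After 6 h, Idh1 and Me1 were higher and Pgls lower with either pretreatment, and Tkt was lower with SFN, so that 3 of 8 members were called after DMSO and 4 of 8 after SFN, where 45.9% (23.9% higher, 22% lower) and 47.6% (24.7% higher, 22.9% lower) of all genes were called. G6pdx and Pgd, the genes that SFN raised, were not called at 6 h against isosmotic medium with the same pretreatment.

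Marker levels moved with 6 h of stress too. After DMSO 6 of 12 tested epithelial and duct markers were higher and 1 lower, and after SFN 8 were higher and 0 lower. Their sum was 2944 to 3304 CPM in isosmotic medium and 4505 to 4558 CPM at 6 h after DMSO, and 2188 to 2380.0 and 4254 to 4503 CPM after SFN. Pax2 had means of 119 and 1141 CPM and Cdh16 of 172 and 403 CPM after DMSO. Of 9 tested markers of other cells, 7 were higher after DMSO and 5 after SFN, and the sum of the 16 was 11.4 to 13.03 and 30.4 to 34.8 CPM after DMSO and 12.9 to 15.0 and 32.0 to 32.8 CPM after SFN. Among them Ptprc, which marks leukocytes, had means of 0.114 and 4.88 CPM after DMSO. The other leukocyte markers had 2.78 and 3.70 CPM (Cd68) and 0.0221 and 0.106 CPM (Lyz2). Pecam1, of endothelium, had 0.0442 and 3.31 CPM after DMSO. The other endothelial markers had 0 and 0.210 CPM (Cdh5) and 0.0680 and 0.640 CPM (Kdr). The part of these marker differences in the results on the enzymes was not tested.

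Idh1 had the largest change of the 8. WT cells with DMSO had 23.2 and 23.9 CPM in isosmotic medium, 26.6 and 23.4 CPM at 1 h and 58.1 and 66.5 CPM at 6 h. With SFN they had 18.4 and 20.6 CPM, 24.7 and 21.4 CPM and 52.4 and 49.9 CPM. The 4 libraries at 6 h lay above all 8 earlier WT libraries. The log2 fold change at 6 h was 1.40 (SE 0.122, adjusted p = 5.25e-07) after DMSO and 1.39 (SE 0.122, adjusted p = 5.18e-07) after SFN, folds of 2.65 and 2.62. In the order of the 8 conditions, WT with SFN at 6 h and the 2 Nrf2-/- conditions were neighbours whose libraries overlapped. Idh2 was at 129.6 and 135 CPM at 6 h after DMSO, against 113 and 122 CPM, and was not called, with a log2 difference of 0.17 (SE 0.117, adjusted p = 0.252). It was called higher in the 12 WT libraries (adjusted p = 0.0178), with only the 4 libraries compared (adjusted p = 0.0285) and with at least 10 counts in every library (adjusted p = 0.0385).

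Me1 stood at 162 and 176 CPM at 6 h after DMSO, against 89.1 and 94.8 CPM in isosmotic medium, and at 192 and 177 CPM after SFN, against 113 and 120.3 CPM. It rose with either pretreatment, by 0.88 (SE 0.128, adjusted p = 6.40e-05) after DMSO and 0.66 (SE 0.128, adjusted p = 0.000687) after SFN on the log2 scale. The 4 libraries at 6 h were the highest of the 16. The difference between the 2 pretreatments in this rise equals the SFN interaction at 6 h, -0.22 (SE 0.180, adjusted p = 0.813), and was not called.

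Pgls went down. It was at 40.8 and 54.8 CPM at 6 h after DMSO and 38.7 and 51.1 CPM after SFN, against 58.8 and 74.7 CPM and 71.4 and 72.4 CPM in isosmotic medium. The log2 fold changes were -0.48 (SE 0.152, adjusted p = 0.0175) and -0.68 (SE 0.152, adjusted p = 0.00206). The call after DMSO was lost without isosmotic replicate 2 or 6 h replicate 1. It was also lost with at least 10 counts in every library (adjusted p = 0.0652). With 1 library left out, the log2 fold change after DMSO ran from -0.71 without 6 h replicate 2 to -0.29 without 6 h replicate 1. Fam129c, which overlaps it, had log2 differences of -0.23 (adjusted p = 0.696) after DMSO and -1.08 (adjusted p = 0.0479) after SFN. Tkt was at 418 and 430.2 CPM at 6 h after SFN against 514 and 499.6 CPM, a log2 fold change of -0.26 (SE 0.0974, adjusted p = 0.0416), and this call was lost under 5 of 9 other settings and when any 1 of the 4 libraries was left out. The Tkt call was also lost without any 1 of the WT libraries of DMSO at 1 h, SFN at 1 h or DMSO at 6 h. Taldo1, G6pdx and Pgd had log2 differences between -0.18 and 0.13 over both pretreatments. G6pdx was called lower after DMSO with library totals (adjusted p = 0.00137), in the 12 WT libraries (adjusted p = 0.0335) and without the Nrf2-/- 1 h pair (adjusted p = 0.00954), in the comparison in which Ikbkg was called lower.

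Whether stress at 1 h acted differently in Nrf2-/- and WT cells after SFN was tested as an interaction, in which edgeR called 0 of 8 members (1 at an unadjusted p under 0.05, 0 by DESeq2) and 0.123% of all genes. The largest member value was that of Tkt, 0.38 (SE 0.138, adjusted p = 0.524). Leaving out Nrf2-/- 1 h replicate 1 gave calls for Taldo1 and Me1 and leaving out replicate 2 gave calls for Taldo1 and Tkt. For Taldo1 the 2 values had opposite signs, -0.69 and 0.43. In the comparison of stress itself within Nrf2-/- cells, leaving out replicate 1 gave calls for G6pdx, Taldo1 and Me1, and leaving out replicate 2 gave calls for Pgd, Taldo1, Tkt and Idh2.

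**Figure D4:**
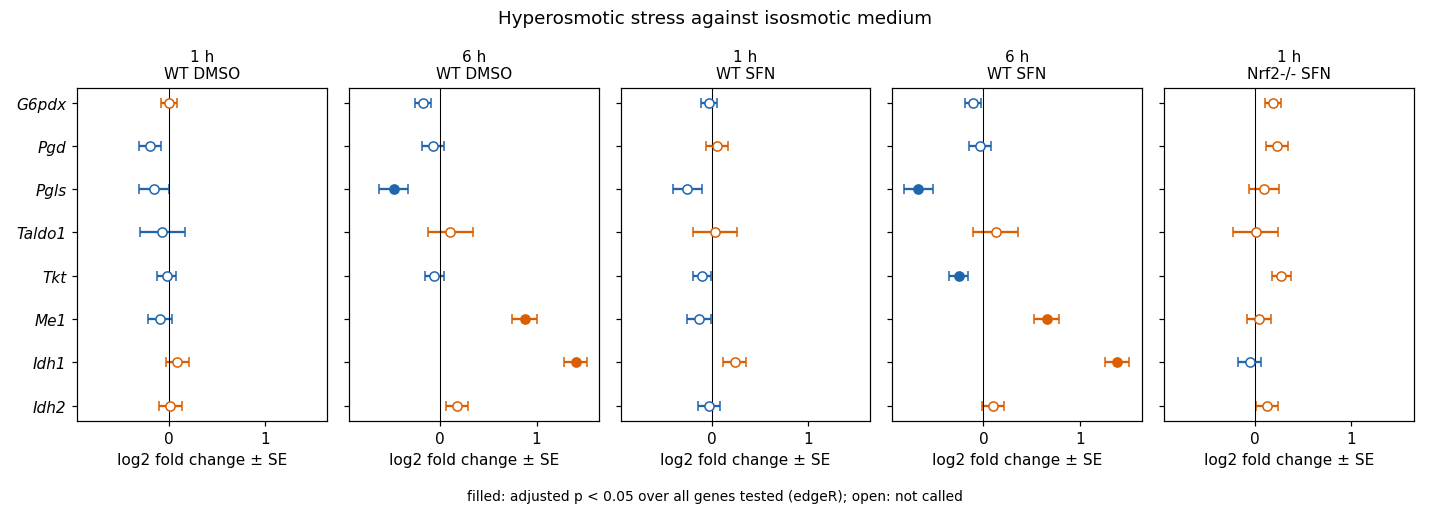
Log2 fold change with its SE for each enzyme in hyperosmotic against isosmotic medium, in WT cells with DMSO or SFN and in Nrf2-/- cells with SFN, from 2 libraries a condition. Filled points passed an adjusted p of 0.05 over all tested genes. No point is filled at 1 h, and at 6 h Idh1 and Me1 lie right of 0 and Pgls left of 0 in both pretreatments.

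Genes around the 8 enzymes were taken from 5 pathway lists. Of 11 other genes of the pathway, 10 were tested and 0 were called in any of the 3 SFN comparisons, where the shares over all genes were 2.84%, 0.0923% and 0.041%. Together with the 3 other lists that gave no call with SFN, described next, 44 genes were tested, of which 4, 2 and 0 had an unadjusted p under 0.05 in isosmotic medium, at 1 h and at 6 h, and DESeq2 called 0 in each. For the 10 other pentose phosphate genes the median log2 fold change with SFN was -0.0098 under isosmotic conditions, against 0 over all genes. With Nrf2 loss 4 of these 10 were higher and 3 lower under isosmotic conditions, and 4 higher and 3 lower at 1 h. Their medians were 0.27 and 0.24, against -0.00091 and -0.022 over all genes. The 3 with the largest values under isosmotic conditions were H6pd, the hexose 6-phosphate dehydrogenase of the endoplasmic reticulum, which was lower at 63.8 against 161 CPM with a log2 fold change of -1.34 (SE 0.115, adjusted p = 4.84e-07), Prps2, which makes phosphoribosyl pyrophosphate and was higher with 1.33 (SE 0.163, adjusted p = 1.60e-05), and Shpk, sedoheptulokinase, which was lower with -1.08 (SE 0.341, adjusted p = 0.0241) at 0.770 against 1.64 CPM. At 1 h they were Shpk at -1.89 (SE 0.354, adjusted p = 0.000877), Prps2 at 1.54 (SE 0.164, adjusted p = 4.73e-06) and H6pd at -1.32 (SE 0.115, adjusted p = 6.12e-07).

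A list of other genes linked to NADPH production, not all of them producers themselves, had 11 of 12 tested. It gave 0 calls with SFN in all 3 comparisons. With Nrf2 loss 2 were higher and 1 lower under isosmotic conditions, and 3 higher and 0 lower at 1 h. The medians were -0.038 and -0.040 on the log2 scale, against -0.00091 and -0.022 over all genes. Mthfd2, a mitochondrial enzyme of one-carbon metabolism, was higher at 274 against 143 CPM, a log2 fold change of 0.94 (SE 0.0969, adjusted p = 2.87e-06), Mthfd1l was higher with 0.62 (SE 0.118, adjusted p = 0.000898), and Glud1, glutamate dehydrogenase, was lower with -0.32 (SE 0.0901, adjusted p = 0.0127). At 1 h Mthfd2 (1.12 (SE 0.0973, adjusted p = 5.70e-07)), Mthfd1l (0.93 (SE 0.119, adjusted p = 2.79e-05)) and Mthfd2l (0.42 (SE 0.133, adjusted p = 0.0244)) were higher.

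The list of reductases that spend NADPH had 14 tested genes, of which 10 were lower, 0 higher and 4 not called in Nrf2-/- cells under isosmotic conditions, and 9 lower, 0 higher and 5 not called at 1 h. Over all genes 18.4% and 16.2% were lower. The medians of the list were -0.55 and -0.66 against -0.00091 and -0.022 over all genes. The list also held Sord, and without it 9 and 8 of 13 were lower. Txnrd1, thioredoxin reductase, was at 785 CPM in isosmotic WT cells with DMSO, 1225 CPM with SFN and 349 CPM in Nrf2-/- cells with SFN. Its log2 fold change was 0.64 (SE 0.115, adjusted p = 0.00614) with SFN and -1.81 (SE 0.118, adjusted p = 2.50e-08) with Nrf2 loss. Nqo1, a quinone reductase, was called higher with SFN under isosmotic conditions (1.43 (SE 0.274, adjusted p = 0.0113)) and at 1 h (1.74 (SE 0.285, adjusted p = 0.0375)). It had 268 and 398 counts in the isosmotic SFN libraries of WT cells and 0 in both isosmotic Nrf2-/- libraries, so no fold is given. Txnrd1 and Nqo1 were the 2 members of the 14 called with SFN under isosmotic conditions and at 1 h, and 0 were called at 6 h by edgeR (5 at an unadjusted p under 0.05, 1 by DESeq2). Cbr3, a carbonyl reductase, was at 0.141 against 6.48 CPM with Nrf2 loss, and Sord, which oxidises sorbitol with NAD and so does not itself spend NADPH, was at 2.16 against 11.2 CPM, a log2 fold change of -2.38 (SE 0.183, adjusted p = 1.41e-07).

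NAD-dependent isocitrate dehydrogenase and its neighbours in the TCA cycle, all 12 tested, gave 0 calls with SFN, 1 higher and 4 lower with Nrf2 loss under isosmotic conditions and 3 higher and 2 lower at 1 h. Of the 3 subunits of the NAD-dependent enzyme, Idh3g was higher (0.68 (SE 0.0899, adjusted p = 3.39e-05)), Idh3b was lower (-0.72 (SE 0.179, adjusted p = 0.00578)), and Idh3a was not called, with -0.11 (SE 0.0977, adjusted p = 0.439). Ogdh, a subunit of 2-oxoglutarate dehydrogenase, was lower (-0.65 (SE 0.111, adjusted p = 0.000331)). Genes of glycolysis around glucose 6-phosphate, all 11 tested, gave 0 calls with SFN, 2 higher and 4 lower with Nrf2 loss under isosmotic conditions and 4 higher and 3 lower at 1 h. On the log2 scale Pfkm (-0.88 (SE 0.104, adjusted p = 1.21e-05)) and Hk1 (-0.83 (SE 0.0969, adjusted p = 1.07e-05)) were lower and Pgk1 (0.72 (SE 0.0970, adjusted p = 4.06e-05)) was higher under isosmotic conditions.

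At 6 h of stress 45.9% of all genes were called after DMSO (23.9% higher, 22% lower) and 47.6% after SFN (24.7% higher, 22.9% lower), and the counts of the lists stand against these shares. After DMSO 2 of the 10 other pentose phosphate genes were higher and 6 lower, with a median of -0.38 against 0.048 over all genes, and after SFN 2 were higher and 3 lower. Of the 11 other genes linked to NADPH production, 5 were higher and 1 lower after DMSO and 4 higher and 2 lower after SFN. The 14 reductases gave 3 higher and 3 lower after DMSO and 4 higher and 3 lower after SFN. Akr1b3, aldose reductase, which uses NADPH to make sorbitol and was chosen after its values were seen, went from 359.8 to 5606 CPM after DMSO, a log2 fold change of 3.96 (SE 0.104, adjusted p = 8.16e-12). Glycolytic genes were higher in 4 and lower in 0 of 11 after DMSO, and higher in 6 and lower in 0 after SFN. TCA genes were lower in 2 of 12 after DMSO, and higher in 1 and lower in 4 after SFN.

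Across the 8 condition means of log2 CPM, G6pdx and Pgd had a Pearson r of 0.970 with each other, and Taldo1 and Tkt 0.874. Idh2 ran against Tkt with r of -0.879 and Pgls against Idh1 with r of -0.826. These values are descriptions over 8 points that share libraries and scaling, with no test. Among 9083 genes with a mean of 10 CPM or more, those whose 8 condition means most resembled each member were, for G6pdx, Blvrb (r = 0.957), Gclm (r = 0.941) and Cat (r = 0.932), and for Pgd, Blvrb (r = 0.958), Gclm (r = 0.949) and Gbe1 (r = 0.942). For Taldo1 they were Gstp1 (r = 0.995), Arl6ip5 (r = 0.994) and Foxd1 (r = 0.993), and for Tkt Galnt10 (r = 0.983), Flot2 (r = 0.979) and Bap1 (r = 0.974). For Pgls they were Chfr (r = 0.990), Ears2 (r = 0.986) and Nle1 (r = 0.981). Me1 was most like Rhpn2 (r = 0.989), Vegfa (r = 0.987) and Sh2b3 (r = 0.980), Idh1 like Fbxo45 (r = 0.989), Hoxb9 (r = 0.988) and Ppp2r3a (r = 0.988), and Idh2 like Col4a6 (r = 0.984), Serinc2 (r = 0.976) and Chst7 (r = 0.973). Blvrb and Gclm stood in the list of both G6pdx and Pgd, whose own span from lowest to highest condition was 0.82 and 1.20 on the log2 scale. Idh1 had the widest span of the 8, 1.67, and Idh2 the narrowest, 0.51.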

How the data were processed

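Total RNA of mIMCD3 cells was sequenced on an Illumina NovaSeq. Alignment was to mm10, by Hisat2 in the authors' methods, whereas their processing notes name Bowtie2, SAMtools and featureCounts. They deposited raw counts per gene symbol, with no normalization. Versions, annotation and strand setting are not given in the sources used here. Among values of 1 to 10 per gene, 58.0% to 68.5% were even, and whether single fragments were counted once is unknown. Lines without a gene name, 2 and 3 in 2 of the libraries, were left out and held no counts. One label calls the RNA that of primary cells, and the cell line of all other labels was used.

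Counts were fitted with edgeR 4.0.16 in R 4.3.3 (TMM, filterByExpr, robust quasi-likelihood F-test, 1 coefficient for each of 8 conditions, 16 libraries). Log2 CPM used a prior count of 2. Alternatives were DESeq2 1.42.0, RLE size factors, library totals, no filter, a minimum of 10 counts in every library, other sets of libraries, a replicate block and leaving out each library. The fits were tried on simulated data with the same spread in all libraries and with changes larger than any SFN difference of a member. That trial does not cover the wide Nrf2-/- 1 h pair or the smaller differences called here. Replicate numbers did not pair the libraries: over 28 pairs of conditions, deviations of same-numbered libraries correlated between -0.079 and 0.12.

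The text names the 8 enzymes, Nfe2l2, Nqo1 and up to 3 called genes with the largest change for each of 5 pathway lists in the SFN and Nrf2 comparisons, and for each enzyme the 3 genes with the most similar pattern. The members and lists were chosen with earlier results of these data known. Gene positions and exon lengths are from GENCODE M21 (GRCm38), in which 96.3% of the symbols were found.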

Additional observations from a re-analysis of the deposited data

How the results depend on the processing

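No called difference of a member changed direction under any of the alternatives run. Counts of members called changed under these settings, and the share of all genes called in the same fit is given in brackets. Shares of the fit as designed are those given with each comparison above. DESeq2 and the fit without the filter counted 34951 genes. With SFN under isosmotic conditions, 2 members became 3 with DESeq2 (3.22%), 4 in the 12 WT libraries (15.2%) and 4 without the Nrf2-/- 1 h pair (14.5%). With SFN at 1 h, 1 became 2 with DESeq2 (0.152%), 2 in the 12 WT libraries (0.533%) and 2 without that pair (0.479%). It became 5 with only the libraries compared (G6pdx, Pgd, Taldo1, Tkt and Me1, 4.95%). With SFN at 6 h, 1 became 2 under each of these 4 settings (0.0629%, 0.243%, 0.213% and 0.623% in the same order). It became 0 with RLE size factors (0.0205%) and with the replicate block (0.0103%). The block also ended the call of Tkt at 6 h of stress after SFN and added that of Pgls with Nrf2 loss in isosmotic medium. With stress at 1 h after DMSO, 0 became 1 (Pgd) in the 12 WT libraries (22.9%), and after SFN 0 became 1 (Pgls) with only the libraries compared (15.9%). In Nrf2-/- cells 0 became 1 (Tkt) with DESeq2 (5.43%). With stress at 6 h after DMSO, 3 became 5 in the 12 WT libraries (57.6%). It became 4 with library totals (49.3%), with only the libraries compared (60.1%) and without the pair (56.7%). With at least 10 counts in every library (51%) the number stayed at 3, with Idh2 in place of Pgls. After SFN, 4 became 5 with library totals (51.3%) and 3 with DESeq2 (26.5%) and with RLE size factors (46.9%). It was also 3 without the filter (27.7%), with at least 10 counts in every library (52.9%) and with the block (46.2%). With Nrf2 loss in isosmotic medium, 6 became 7 without the filter (20%), with only the libraries compared (52.1%) and with the block (32.8%). At 1 h of stress 6 became 2 with only the libraries compared (10.1%).

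Leaving out 1 library changed which members were called with SFN in each medium, with stress at 6 h after either pretreatment and with Nrf2 loss. It also did so with stress in Nrf2-/- cells and in the interaction with genotype. The share of all genes called moved as well in the comparisons of SFN, stress and Nrf2 loss. Each such fit leaves 1 library in a condition, so the counts are not read as results on the members.

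Over called and uncalled differences together, 35 of 880 values under other settings and 47 of 512 without 1 library had the opposite sign. All of these reversed values belonged to uncalled differences. Under other settings they ran from -0.14 (Idh2 at 6 h of stress after SFN, library totals) to 0.096 (Pgd at 6 h after SFN, at least 10 counts in every library). Without 1 library they ran from -0.66 to 0.43 (both Taldo1, without an Nrf2-/- 1 h library). Idh2 at 6 h after DMSO went to -0.014 with library totals and G6pdx at 6 h after SFN to 0.021 with at least 10 counts. Library totals moved the median of all genes at 6 h of stress from 0.048 to -0.12 after DMSO and from 0.085 to -0.13 after SFN, and with Nrf2 loss at 1 h from -0.022 to -0.12. The 3 genes most like each member were the same 24 with a prior count of 0.5.

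The 2 libraries a condition limit the precision, and SEs of the members' log2 differences between conditions ran from 0.0825 to 0.234. The cause of these changes was not tested.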
